A study of Mus musculus with 12 samples.

Results

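The genes described here encode structural proteins of the neuronal cytoskeleton: the neurofilament subunits Nefl, Nefm and Nefh, the related filament genes Ina and Prph, the stathmins Stmn2, Stmn3 and Stmn4, the growth cone gene Gap43 and the tubulin gene Tubb3. They are 10 of the 27129 genes in the per-library table, and each has 1 row there. They were chosen as a family, and because Stmn2 was higher and Nefm lower in the mutant-labelled libraries, that is, they were selected on their CPM in the 2 groups, so the comparison of the groups below only describes these genes and carries no test for them.

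The samples were whole pituitary glands of newborn mice (postnatal day 0) with the posterior lobe taken off, sequenced as 12 libraries. The 6 control glands were Prop1cre;Isl1+/fx, in which 1 allele of Isl1 was floxed and the other intact. The 6 glands labelled mutant were Prop1cre;Isl1fx/-, with 1 floxed and 1 null allele of this LIM-homeodomain transcription factor gene. All 12 carried the Prop1cre transgene, in which Cre recombinase is driven by a promoter active in pituitary progenitors, so controls carry Cre as well. The series design calls the samples individual, and nothing states more on litters, so p-values here cover only the spread among them.

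Neurofilaments are the intermediate filaments of axons. Nefl, Nefm and Nefh encode the light, medium and heavy subunits, which assemble together with alpha-internexin (Ina) or peripherin (Prph) and set the calibre of the axon. Stathmins bind tubulin dimers and promote the turnover of microtubules: Stmn2, Stmn3 and Stmn4 are the members anchored to membranes in neurons. Gap43 is a membrane-bound protein of growing axon tips, and Tubb3 is the beta-tubulin class used as a marker of neurons. Endocrine cells of the anterior pituitary share part of the neuronal secretory and cytoskeletal gene programme, and axons of hypothalamic neurons run to the posterior lobe, which had been removed.

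Libraries held 46204920 to 51535425 fragments in controls and 45415453 to 61533576 in those labelled mutant. The deleted gene itself, Isl1, was higher in the mutant-labelled libraries, at 59.3 ± 4.98 against 35.4 ± 3.04 CPM (SD, n = 6 each), so its level does not check the labels. CPM is the fragment count of a gene relative to the size of its library, scaled by TMM. Control 4, mutant 0 and mutant 3 stood apart by high Xist (305 to 374 FPKM, against 0.0731 to 0.533 FPKM in the other 9 libraries). The same 3 libraries had almost no Y-linked signal, as in female mice. The mean log2 FPKM (pseudocount 1) of 4 Y-linked genes was 0.013 to 0.066 there and 4.39 to 4.53 in the other 9. By these values sex was not balanced between the groups. Libraries numbered 0 gave a different FPKM for the same CPM: for Nefh it was 26.2% lower than in the other libraries, for Nefm 19.7% lower and for Stmn2 5.67% higher. FPKM, which is divided by length, is used here for levels, ratios and sums across genes, and fold changes rest on fragments. Ratios and sums in FPKM thus carry this difference in control 0 and mutant 0.

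All 10 genes were detected in each library, at levels that differed widely. Stmn3 had the highest level per length, at a mean of 27.7 ± 2.50 FPKM (SD, n = 12). Gap43 followed at 22.5 ± 1.75 FPKM and Tubb3 at 22.4 ± 3.95 FPKM. Of the 15246 genes tested, 78.3% had a lower mean FPKM than Stmn3. A middle tier held Nefl at 7.13 ± 0.964 FPKM, Stmn2 at 7.07 ± 1.90 FPKM and Ina at 6.08 ± 0.496 FPKM. A low tier held Nefh at 1.79 ± 0.288 FPKM, Nefm at 1.72 ± 0.363 FPKM and Stmn4 at 1.62 ± 0.344 FPKM. Prph, the filament protein of peripheral and some central neurons, was lowest at 0.364 ± 0.125 FPKM, with 15 to 55 fragments in a library. It was under 1 FPKM in all 12 libraries and therefore missed the level filter of the test.

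The order of levels was not used to choose the genes, and it was tested within libraries on the log2 scale, between the 9 pairs of neighbours in the order. The steps between the tiers, and the step from Stmn3 to Gap43, were larger than the spread between libraries. Stmn3 exceeded Gap43 by 0.30 ± 0.129 (mean log2 difference and SD, higher in 12 of 12 libraries). Tubb3 exceeded Nefl by 1.64 ± 0.350, Ina exceeded Nefh by 1.78 ± 0.184, and Stmn4 exceeded Prph by 2.21 ± 0.676, each in 12 of 12 libraries. For each of these 4 steps the exact two-sided sign-flip permutation test gave an adjusted p of 0.0011 (Benjamini-Hochberg over 9 pairs; unadjusted p = 0.000488, the smallest it can give). Within the tiers neighbours did not differ beyond their spread: Gap43 and Tubb3 differed by 0.02 ± 0.281, Nefl and Stmn2 by 0.05 ± 0.357, and Nefh and Nefm by 0.07 ± 0.246. The adjusted p-values of the 5 other pairs in the exact permutation test lay between 0.435 and 0.790. Places in the order that involve Stmn2 and Nefm depended on the group. Stmn2 was above Ina in 1 of 6 controls (mean log2 difference -0.20) and in 6 of 6 mutant-labelled libraries (0.55). Nefm was above Stmn4 in 5 of 6 controls (0.42) and in 0 of 6 mutant-labelled libraries (-0.26). These shifts follow the contrast that chose Stmn2 and Nefm and carry no test. A pair without these genes shifted too: Gap43 was above Tubb3 in 2 of 6 controls (-0.13) and in 5 of 6 mutant-labelled libraries (0.18).

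**Figure D1:**
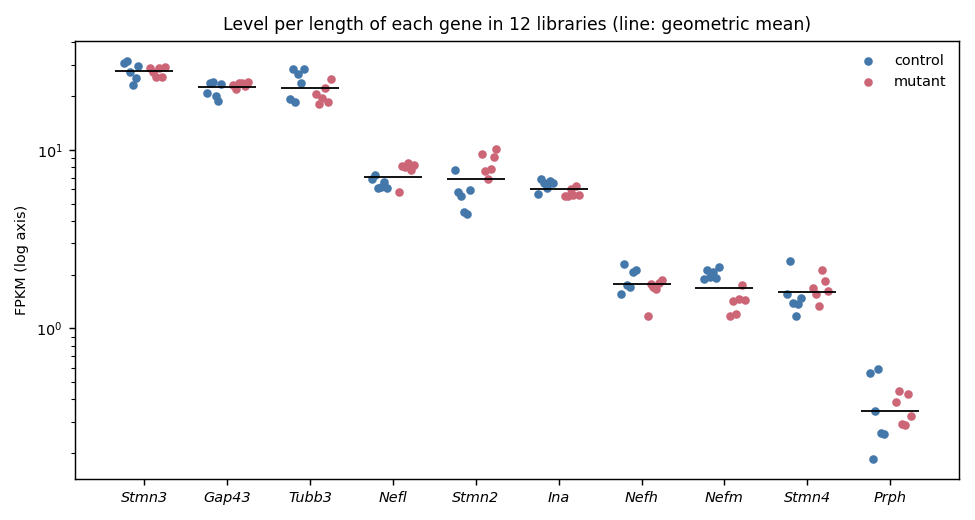
FPKM of each gene (log axis) in 6 control libraries (blue) and 6 mutant-labelled libraries (red), ordered by the geometric mean over 12 libraries (line). Tiers can be seen above Prph: Stmn3, Gap43 and Tubb3, then Nefl, Stmn2 and Ina, then Nefh, Nefm and Stmn4.

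Between the groups, 1 of the 9 genes above the level filter was called higher by edgeR (Stmn2) and 1 lower (Nefm), which are the 2 that the choice rests on. Over all 15246 genes tested 7.05% were called, 4.30% higher and 2.75% lower, and nothing is read from the count of 9, since the choice used it. The median log2 fold change was -0.01 over the 9 genes and -0.00 over all genes tested, with 4 of the 9 above 0 and 5 below. The median absolute log2 fold change was 0.21 over the 9 genes and 0.07 over all genes tested. In bulk tissue, fewer cells of a type and less RNA per cell cannot be told apart.

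Nefm encodes the medium neurofilament subunit, whose long tail projects from the filament. Its row lies on chromosome 14, and the RefSeq interval is chr14:68119545-68125004 (GRCm38, minus strand in GENCODE M21). Control libraries lay between 6.04 and 7.39 CPM (median 6.61), and the mutant-labelled libraries between 3.81 and 5.53 CPM (median 4.56). Each mutant-labelled library was thus below each control, on the CPM scale and on the FPKM scale. Of all genes tested, the groups did not overlap for 4.28% (2.91% with the higher values in the mutant-labelled libraries and 1.37% with the lower). The means were 6.63 ± 0.498 and 4.59 ± 0.550 CPM (SD, n = 6 each), and the log2 fold change was -0.53 (standard error, SE, 0.0870), which is 1.45-fold more in controls.

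The interval of Nefm is shared in part. The long noncoding RNA gene A230070E04Rik (chr14:68123752-68131371) overlaps the RefSeq interval of Nefm by 1253 bases, and the authors' table gives both genes the same locus. The library kit keeps no strand, so fragments from the overlap cannot be told apart. A230070E04Rik had a control mean of 4.12 ± 0.459 CPM and a mutant-labelled mean of 2.82 ± 0.309 CPM (SD, n = 6), with a log2 fold change of -0.55 (edgeR adjusted p = 0.00393). How fragments were divided between Nefm and A230070E04Rik was not tested.

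Nefl, the light subunit on which the other subunits depend for assembly, lies 31807 bases from Nefm on the same chromosome (chr14:68083884-68087737, plus strand). Nefl was not called by edgeR. Controls lay between 11.4 and 15.05 CPM (median 12.01), and the mutant-labelled libraries between 12.9 and 15.8 CPM (median 15.2). The ranges overlapped: 4 of 6 mutant-labelled libraries were above the highest control, control 0. The mean went from 12.6 ± 1.42 to 14.8 ± 1.02 CPM (SD, n = 6), and the log2 fold change was 0.24 (SE 0.0749). In GENCODE M21 the last exon of the transcript Nefm-202 shares 1087 bases with the interval of Nefl. The authors' deposited isoform table lists 1 transcript of Nefm. The locus of the Nefm row in the per-library table, chr14:68119545-68131371, does not reach that exon. How fragments in that stretch were assigned was not tested.

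Nefh, the heavy subunit, is on chromosome 11. It ranged from 6.75 to 8.94 CPM in controls (median 8.22) and from 6.32 to 7.34 CPM in the mutant-labelled libraries (median 6.88). The ranges overlapped, with 2 of 6 mutant-labelled libraries below the lowest control, and the log2 fold change was -0.21 (SE 0.0765). Its interval shares 745 bases with Ap1b1, a gene at 159 to 176 CPM over the libraries.

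Within a library the share of the neurofilament subunits thus differed between the groups. On the FPKM scale, Nefl made up 62.3 ± 2.57% of the sum of Nefl, Nefm and Nefh in controls and 71.6 ± 1.67% in the mutant-labelled libraries (SD, n = 6). Nefm made up 19.4 ± 1.36% and 13.1 ± 1.59%, and Nefh 18.3 ± 1.98% and 15.3 ± 0.768%. The ratio of Nefl to Nefm ran from 2.76 to 3.64 in controls and from 4.43 to 6.69 in the mutant-labelled libraries, without overlap. The ratio rests on the same contrast that chose Nefm and is given as a description.

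**Figure D2:**
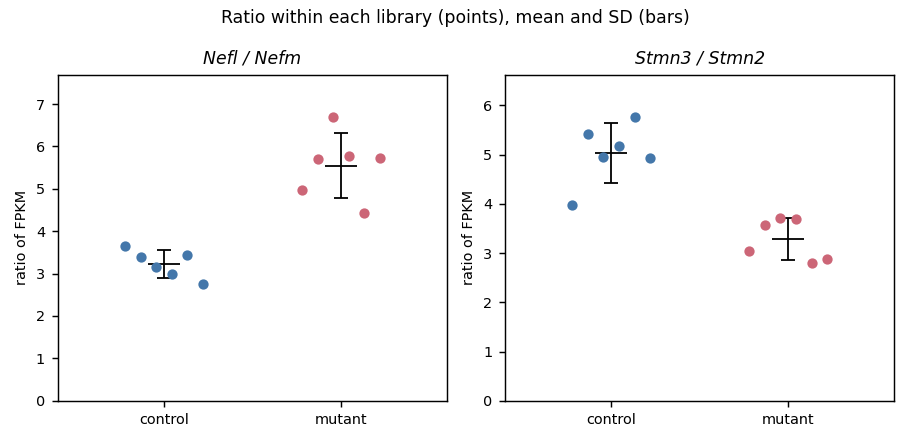
Ratio of FPKM within each library (points; y axes start at 0) for Nefl over Nefm (left) and Stmn3 over Stmn2 (right), with mean and SD of 6 libraries per group. The ratio of Nefl to Nefm lies at 2.76 to 3.64 in controls and 4.43 to 6.69 in the mutant-labelled libraries.

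Ina, the alpha-internexin gene on chromosome 19, had the tightest values of the set. It lay between 12.5 and 14.7 CPM in controls (median 13.9) and between 11.7 and 13.5 CPM in the mutant-labelled libraries (median 12.3). In percent of the mean, the SD was 5.73% in controls and 5.45% in the mutant-labelled libraries. Its log2 fold change was -0.14 (SE 0.0539), with 3 of 6 mutant-labelled libraries below the lowest control. Its interval shares 494 bases with Nt5c2. Prph (chromosome 15) was the loosest, with an SD of 51.5% of the mean in controls and 22.1% in the other group. It lay between 0.301 and 1.09 CPM in controls and between 0.471 and 0.773 CPM in the mutant-labelled libraries, a range inside that of controls. The authors' deposited isoform table gives 0.337 and 0.328 FPKM (controls and mutant) for the Prph transcript NM_001163589, and at most 0.0327 FPKM for each of the others.

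Stmn2, also called SCG10, is a stathmin of growing axons on chromosome 3 (chr3:8509527-8561604), and no other row of the table overlaps it. Controls lay between 7.75 and 13.2 CPM (median 10.03), and the mutant-labelled libraries between 12.2 and 17.97 CPM (median 14.7). The overlap came from control 0: at 13.2 CPM it was above mutant 2 at 12.2 CPM, while the other 5 controls reached at most 10.5 CPM. The means were 9.90 ± 1.98 and 14.9 ± 2.099 CPM (SD, n = 6), 1.499-fold higher in the mutant-labelled libraries (log2 fold change 0.58, SE 0.128). The log2 fold change was 0.68 without control 0 and 0.53 without the 3 libraries with high Xist, where Stmn2 was no longer called. Of the 10 genes, Stmn2, Nefm and Tubb3 in the authors' deposited table are at or under a q-value of 0.05. The authors' deposited table marks Stmn2 of these, at 8.49 against 5.65 FPKM (a fold of 1.502), since it also asks for a fold of at least 1.5 in either direction. That comparison used the same libraries on which Stmn2 and Nefm were chosen, and the q-value of Tubb3 was 0.0468. Nothing is read from the number of genes under the limit, since no share over all genes stands beside it.

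Stmn3, the stathmin also called SCLIP (chromosome 2), had nearly the same mean in both groups, 26.9 ± 2.94 CPM (control) and 26.6 ± 1.53 CPM (mutant-labelled; SD, n = 6). Its log2 fold change was -0.01 (SE 0.0690), and the range of 24.8 to 28.3 CPM in the mutant-labelled libraries lay inside the 22.6 to 30.4 CPM of controls. The ratio of Stmn3 to Stmn2 on the FPKM scale was 5.03 ± 0.609 in controls and 3.28 ± 0.422 in the mutant-labelled libraries. Stmn4 (chromosome 14), at 61 to 139 fragments in a library, ran from 1.255 to 2.525 CPM in controls and from 1.43 to 2.26 CPM in the mutant-labelled libraries. Its log2 fold change was 0.12 (SE 0.173).

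Gap43 (chromosome 16) lay between 21.3 and 27.6 CPM in controls and between 25.0 and 30.9 CPM in the mutant-labelled libraries, and only mutant 0 was above all controls. Its log2 fold change was 0.10 (SE 0.0710). Tubb3 (chromosome 8), the most abundant of the set in CPM, lay between 29.6 and 44.8 CPM in controls and between 28.4 and 39.6 CPM in the mutant-labelled libraries. The ranges overlapped, with 2 of 6 mutant-labelled libraries below the lowest control, and the log2 fold change was -0.21 (SE 0.111). The genes nearest to the calling threshold on its outer side were Nefl at 0.24 and Nefh at -0.21, against 0.58 for Stmn2 and -0.53 for Nefm inside it.

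**Figure D3:**
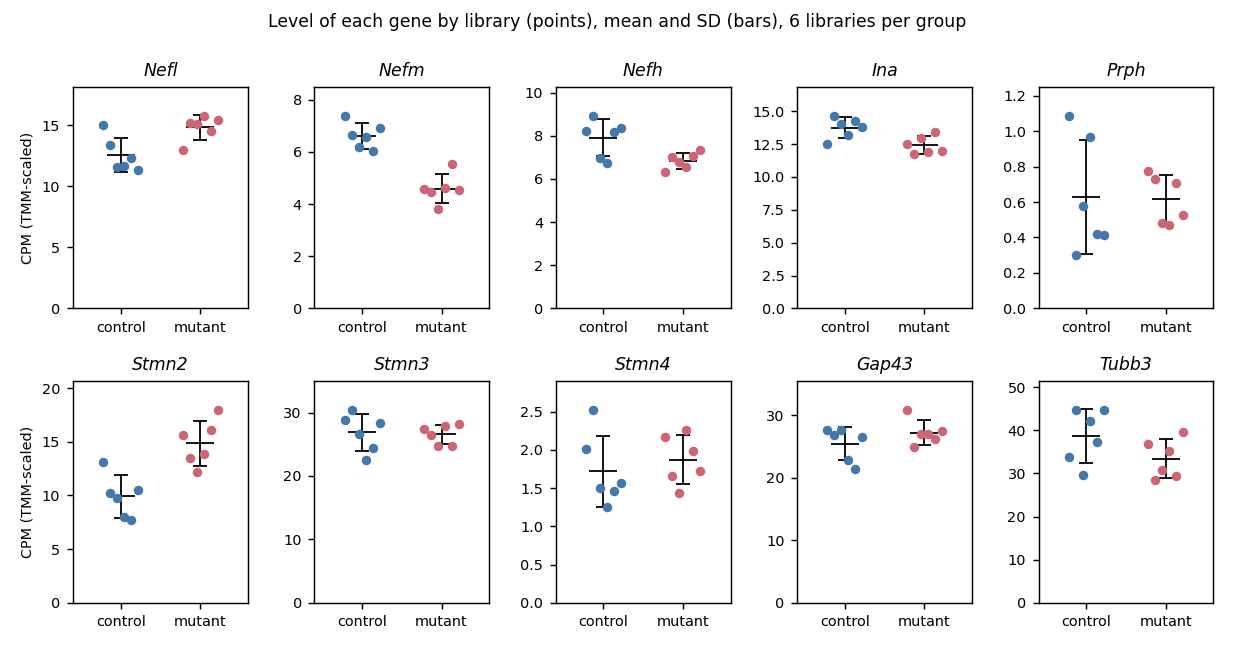
TMM-scaled CPM of each gene by library (points; y axes start at 0), with mean and SD of 6 controls and 6 mutant-labelled libraries. Nefm is the gene whose groups do not overlap, and in Stmn2 control 0 at 13.2 CPM is the control that reaches the other group.

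The genes were then compared across libraries within the groups, a pattern that the choice of genes did not use. For each gene the deviations of log2(CPM + 0.1) from the mean of its own group were correlated over the 12 libraries, which share their depth and tissue. Of 45 pairs, 33 had a Pearson r above 0 (median 0.20). None passed the adjustment over the 45 pairs (smallest adjusted permutation p = 0.341 for Pearson and 0.186 for Spearman), and 5 had an unadjusted p under 0.05. At an unadjusted p under 0.05 stood pairs of Stmn2, Stmn3, Stmn4 and Gap43, and the pair of Nefm and Stmn2.

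Stmn3 and Stmn4 had an r of 0.77 (permutation p = 0.0106, adjusted p = 0.341) and a rho of 0.76 (permutation p = 0.0124, adjusted p = 0.186). Without the 2 libraries farthest from the median of Stmn3, control 1 and control 3, r was 0.54. For Nefm and Stmn2, whose log2 fold changes between the groups had opposite signs, r within them was positive but did not pass the adjustment. It was 0.66 (permutation p = 0.0152, adjusted p = 0.341) and rho 0.75 (permutation p = 0.0101, adjusted p = 0.186). Without mutant 2 and mutant 4, the libraries farthest from the median of Nefm, r was 0.71. In controls alone it was 0.81 and in the mutant-labelled libraries alone 0.62 (n = 6 each, given without a test). Nefl and Nefm, the neighbours on chromosome 14, had an r of 0.18 (permutation p = 0.549, adjusted p = 0.846) and a rho of 0.17 (permutation p = 0.619, adjusted p = 0.893). Without control 0 and mutant 0 the r of Nefl and Nefm was -0.10.

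**Figure D4:**
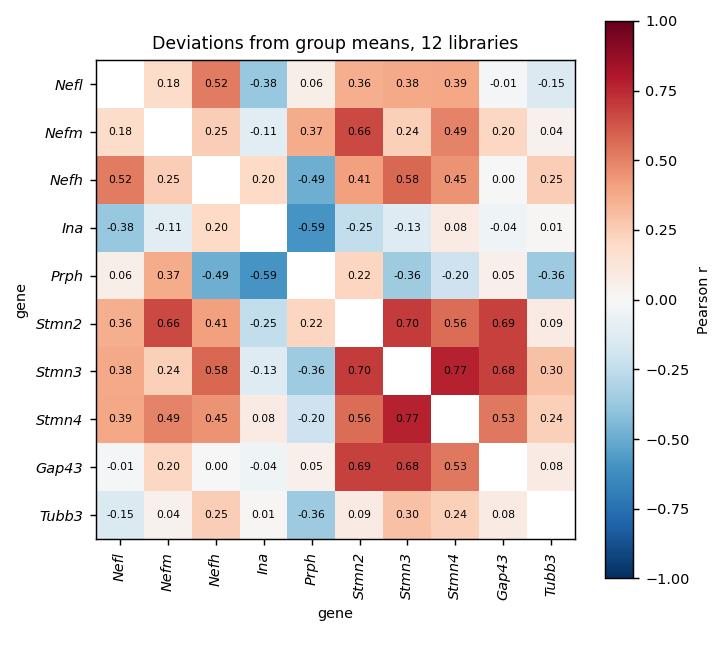
Pearson r between each pair of genes over 12 libraries, computed on deviations of log2(CPM + 0.1) from the mean of the own group (colour scale from -1 to 1). Stmn2, Stmn3, Stmn4 and Gap43 form a block of positive values, with 0.77 for Stmn3 and Stmn4. None of the 45 pairs passed the adjustment.

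The same measure named the genes most like Stmn2 and Nefm among all genes tested, as a description over 12 libraries and with no test. For Stmn2 these were Eea1, which tethers early endosomes (r = 0.92), the ubiquitin ligase gene Rnf130 (0.88), the peptidase gene Mme (0.87), Clic5 (0.86) and Gch1, the first enzyme of tetrahydrobiopterin synthesis (0.86). For Nefm they were the neuroendocrine reticulon gene Rtn1 (r = 0.90), H2-M3 (0.88), the planar polarity gene Prickle1 (0.87), Chml (0.86) and the receptor gene Cd40 (0.86). No other tested gene of the set was among the 5 most alike of either, a narrow cut among 15246 genes. With predicted names counted, their ranks in likeness to Stmn2 ran from 134 (Stmn3, r = 0.70) to 11647 (Ina, r = -0.25). In likeness to Nefm they ran from 136 (Stmn2, r = 0.66) to 9855 (Ina, r = -0.11). Prph was not ranked.

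Related cytoskeletal genes outside the set were followed in 4 lists, of which 56 of 59 genes were tested. edgeR called 2 of the 56 higher and 1 lower, or 5.36%, against the 7.05% of all genes tested. The list of neuronal microtubule and growth cone proteins held 35 tested genes with a median log2 fold change of -0.03. In it the collapsin response mediator gene Crmp1 fell from a mean of 97.7 ± 5.40 CPM to 84.5 ± 6.37 CPM (SD, n = 6 per group; log2 difference -0.21, SE 0.0518, edgeR adjusted p = 0.0282). L1cam, an adhesion protein of axons, rose from 18.2 ± 1.97 to 22.3 ± 1.95 CPM (log2 fold change 0.29, SE 0.0747, edgeR adjusted p = 0.0320). Crmp1 lost its call without control 1, 3 or 5 or mutant 1, 2, 3 or 4 (edgeR adjusted p = 0.0544 to 0.0694). L1cam lost its call without control 0, 1, 3 or 4 or mutant 0, 1, 2 or 4 (edgeR adjusted p = 0.0509 to 0.0722). L1cam was not called by limma (adjusted p = 0.0648 and 0.0669) or without both libraries numbered 0 (edgeR adjusted p = 0.0838).

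Among the 6 other tubulin genes tested, Tubb4b, a beta-tubulin found in axonemes, rose from a mean of 225 ± 15.1 CPM to 268 ± 26.8 CPM (n = 6 each; log2 fold change 0.25, SE 0.0628, edgeR adjusted p = 0.0294). It was above all controls in 6 of 6 mutant-labelled libraries. The call was lost without control 0, control 4 or mutant 1 (edgeR adjusted p = 0.0529 to 0.0603). The 7 tested genes of other intermediate filaments, Vim and Nes among them, gave 0 calls with a median log2 fold change of -0.03. The 8 genes of REST, a repressor of neuronal genes outside neurons, and of its corepressors gave 0 calls as well, and their median was -0.06. Rest itself was at 0.10 (edgeR adjusted p = 0.530).

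**Figure D5:**
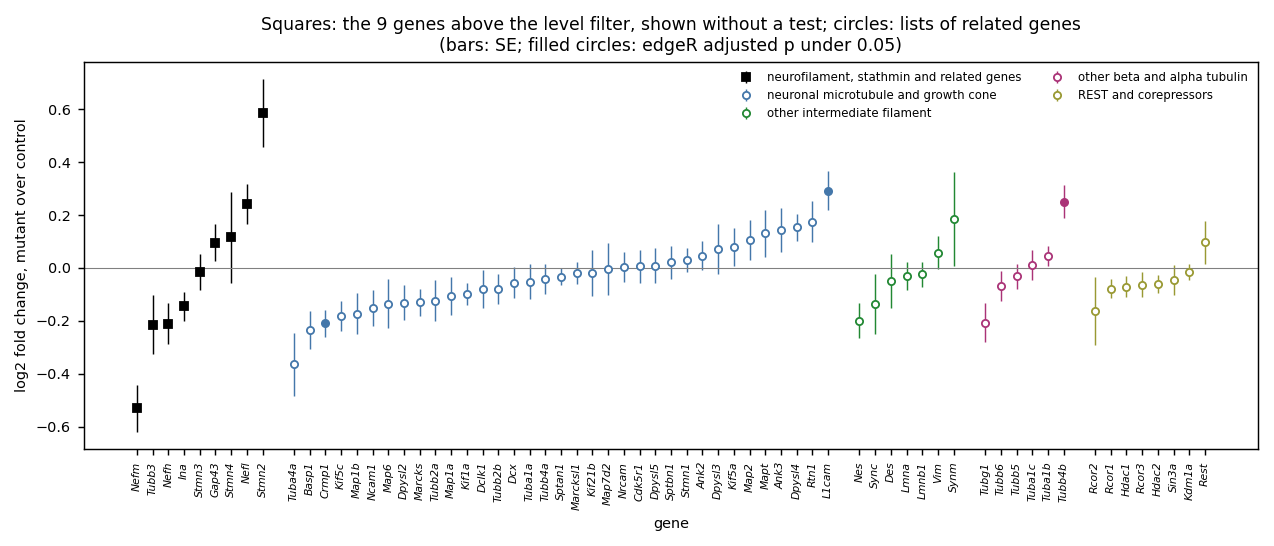
Log2 fold change (mutant-labelled libraries over control) with SE for 9 genes of the set (black squares, shown without a test) and for 4 lists of related genes (circles, filled where the edgeR adjusted p was under 0.05). Nefm at -0.53 and Stmn2 at 0.58 lie at the ends, and Crmp1, L1cam and Tubb4b are the filled circles.

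Markers of cells that could carry these transcripts were read in the same libraries. All 18 pan-neuronal genes, which endocrine cells of the pituitary express in part, passed the level filter. Their summed level was 440 to 497 FPKM in controls and 465 to 489 FPKM in the mutant-labelled libraries. The largest parts of this sum were Uchl1 (means of 150 FPKM in controls and 156 FPKM in the mutant-labelled libraries) and Snap25 (90.3 and 89.0 FPKM). Genes at low levels thus weigh little in it. In this list Snhg11, a noncoding host gene, rose by 0.49 (edgeR adjusted p = 0.0212) and the surface glycoprotein gene Thy1 fell by 0.49 on the log2 scale (edgeR adjusted p = 0.0354). Snhg11 lost its call without control 1 (edgeR adjusted p = 0.0502). Without the 3 libraries with high Xist, edgeR called neither Snhg11 (log2 fold change 0.52, adjusted p = 0.0663) nor Thy1 (-0.58, adjusted p = 0.0538), although these log2 fold changes were no smaller than with all 12 libraries. L1cam (0.24, adjusted p = 0.145) and Tubb4b (0.20, adjusted p = 0.0789) were not called there either. Thy1 also lost its call without control 0, 1, 4 or 5 or mutant 1, 2, 3, 4 or 5 (edgeR adjusted p = 0.0555 to 0.0848).

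Of the 24 measured markers of peripheral sensory and autonomic neurons, 7 were tested. Pou4f2, Prdm12, Tlx3, Dbh and Hand2 were among those that stayed under 0.1 FPKM in each library. Other markers of the list were expressed, most of all the receptor genes Ntrk2 and Ntrk3. These reached 26.7 and 11.3 FPKM in their highest libraries, and edgeR called neither. The sum over the list was 42.4 to 58.2 FPKM in controls and 50.2 to 59.1 FPKM in the mutant-labelled libraries. Most of it came from Ntrk2 and Ntrk3. The receptor gene Ret fell by 0.32 on the log2 scale (edgeR adjusted p = 0.0241). Its call was lost with the replicate number as a block (log2 fold change -0.32, edgeR adjusted p = 0.0793), with limma (adjusted p = 0.0559 and 0.0588) and on leaving out the 3 high-Xist libraries (-0.26, edgeR adjusted p = 0.152). It was also lost without control 3, mutant 2 or mutant 3 (edgeR adjusted p = 0.0533 to 0.0593). Of the 16 hypothalamic neuron markers, 5 were tested and 0 called, with a sum of 11.4 to 18.9 FPKM in controls and 12.3 to 17.3 FPKM in the other group. Of the 7 pituicyte markers, 6 were tested and 0 called, and their sum was 65.9 to 86.0 FPKM against 62.2 to 81.7 FPKM. In the Schwann cell list, 1 of 8 tested genes, the neuregulin receptor gene Erbb3, rose (log2 fold change 0.32, edgeR adjusted p = 0.000671), and the sum was 30.4 to 60.4 FPKM against 32.4 to 59.9 FPKM.

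The lists of 2 other cell types moved with the groups. Of the 6 gonadotrope genes, edgeR called 4 lower, Gnrhr, Nr5a1, Cga and Foxl2 (edgeR adjusted p from 8.64e-06 to 5.92e-05). Lhb and Fshb also had lower means in the mutant-labelled libraries, with a wide spread in controls, and were not called. The mean of Lhb went from 17.1 ± 28.1 to 2.36 ± 2.31 CPM (SD, n = 6 per group, edgeR adjusted p = 0.0969). That of Fshb went from 39.2 ± 47.2 to 7.75 ± 5.18 CPM (edgeR adjusted p = 0.0665). The sum over the gonadotrope list was 406 to 1431 FPKM in controls and 107 to 215 FPKM in the mutant-labelled libraries. Multiciliated cell genes rose in 8 of 8 tested cases, Foxj1 among them, with a sum of 30.0 to 37.9 FPKM in controls and 62.9 to 114 FPKM in the mutant-labelled libraries. The part of these cell types in the values of Nefm and Stmn2 was not tested.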

How the data were processed

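Per the labels' protocols, total RNA from an Ambion kit was made into libraries with an unstranded TruSeq RNA kit (v2). The submitters' processing notes name the build mm10 and these tools: Cufflinks, Cuffdiff 2.1.1, Bowtie2 2.1.0, TopHat2 2.0.9 and FastQC 0.10.1. Per the file headers, the deposited per-library table holds estimated counts of fragments and FPKM. The authors' deposited comparison table gives FPKM per group, a log2 fold change and a q-value, used only to describe which genes the authors marked. The 12 columns of scaled fragments stayed unused.

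Estimated counts were rounded. A gene was tested if its FPKM reached 1 in 6 or more of the 12 libraries (15246 genes, with 11883 left out). These genes held 98.8% to 99.2% of the fragments of a library, and CPM is relative to their sum. Samples were grouped by their labels. The quasi-likelihood test of edgeR 4.0.16 in R 4.3.3 was run on both groups without covariates, after TMM scaling, with a Benjamini-Hochberg adjusted p under 0.05 as the call. SE is the absolute log2 fold change over the square root of F. Prph was fitted only without the filter. Levels were compared with exact sign-flip tests, and correlations with 100000 permutations within groups. Alternatives used limma 3.58.1, DESeq2 1.42.0, other scalings and filters, a replicate block, a Y-linked covariate and fewer libraries. The edgeR step was tested on simulated data. No 2 libraries of a group were alike within sampling noise (30 pairs, chi-square over its degrees of freedom 17.5 to 41.6). Intervals of overlapping genes came from RefSeq (GRCm38.p6) and strands from GENCODE M21, both of the build of the files. List symbols were matched directly or by RefSeq synonym.

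The genes and lists were chosen with earlier results of these data known. The rule for naming took all 10 genes, up to 8 called genes per list by smallest adjusted p, and the 5 genes most like Stmn2 and Nefm, leaving out predicted names. Of the 8 multiciliated cell genes only examples are named. A230070E04Rik, Ap1b1, Nt5c2, Rest, Vim, Nes, Lhb, Fshb, Uchl1, Snap25, Ntrk2, Ntrk3 and the markers near 0 were named outside this rule. They were named after their values were seen.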

Additional observations from a re-analysis of the deposited data

Results flagged for a closer look

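Mutant 0 stood apart from the other 5 libraries labelled mutant in 4 of the 60 gene and group combinations looked at, as the highest of its group each time. The gap to the nearest library, divided by the range of the group, was above Dixon's 95% critical value for 6 libraries. Chance flags about 1 in 20 groups. The axonemal tubulin gene Tubb4b was at 320 CPM in mutant 0, with the next library at 271 CPM and the lowest at 251 CPM. The others were genes of multiciliated cells. Ak7 was at 17.7 CPM, with the next library at 9.13 CPM. Dnah5 was at 52.9 CPM, with the next at 27.5 CPM, and Rsph1 at 25.4 CPM, with the next at 17.6 CPM. Mutant 0 is also 1 of the 3 libraries with high Xist. Without it Tubb4b remained called by edgeR. None of the 10 neurofilament, stathmin and related genes was set apart in this way in either group.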

How the results depend on the processing

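Nefm was called under each of the 22 alternatives that could test it (log2 fold change -0.59 to -0.33). The -0.33 was from limma with a pseudocount of 1, and the other alternatives gave -0.59 to -0.48. Stmn2 was called under 22 of 23 (0.52 to 0.68), the exception being the fit without the libraries with high Xist. The alternatives reuse the libraries and the contrast that chose Nefm and Stmn2. Their calls describe how the fits differ and are no test of these 2 genes. Nefl was called by DESeq2, without control 0, without mutant 0 and without both libraries numbered 0, and was not called under the 19 other alternatives. Ina, Stmn3, Gap43 and Tubb3 were called under none of 23, and Nefh and Stmn4 under none of the 22 that could test them. Stmn3 and Stmn4 changed sign among alternatives, at -0.06 to 0.02 and -0.06 to 0.26. Genes of the set called higher thus numbered 2 with DESeq2, 0 without the libraries with high Xist, 2 without both libraries numbered 0 and 1 to 2 on leaving out each library. Those called lower numbered 0 with FPKM of at least 5, where Nefm was not tested.

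Over all genes, 656 were higher and 419 lower. FPKM of at least 5 gave 283 and 192, the fit without the libraries with high Xist 379 and 144, and leaving out each library 485 to 694 and 197 to 443, lowest without control 1. DESeq2 gave 935 higher and 807 lower, and the fit without both libraries numbered 0 gave 607 and 405. With limma the counts were 516 and 216 (pseudocount 1) and 506 and 214 (pseudocount 0.1). Scaling to the library total gave 734 higher and 282 lower, or 72.2% higher against 61%. In the lists of related genes, those higher numbered 1 with FPKM of at least 5, with either limma fit and without both libraries numbered 0, 0 without the libraries with high Xist, and 0 to 2 on leaving out each library. Those lower numbered 5 with DESeq2 and without both libraries numbered 0, 3 with the replicate block, 2 with the Y-linked covariate, and 0 to 3 on leaving out each library. The causes were not tested. In the order of levels, 4 neighbour pairs differed in all settings except controls alone and mutants alone. With 6 libraries the exact sign-flip test cannot give an unadjusted p under 0.03125, so passing depends on how many pairs reach that floor. In controls alone 0 passed (smallest adjusted p = 0.0703, exact sign-flip test), although the same 4 steps each held in 6 of 6 libraries. In mutants alone 6 passed. Among them were Stmn2 above Ina and Nefm below Stmn4, which follow the contrast that chose these genes. No correlated pair passed under any alternative.

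Same-numbered libraries correlated at -0.08 to 0.36, and in 2 of 6 cases best with their own number, so the numbers do not pair the libraries. With the replicate block 672 genes were higher and 401 lower, and Nefm and Stmn2 were called, while Ret was not (edgeR adjusted p = 0.0793). Depth was lowest for Prph and Stmn4, at 15 to 55 and 61 to 139 fragments a library.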
